A study of Mus musculus with 9 samples.

Results

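The genes described here are 7 host genes of small nucleolar RNAs (Gas5, Snhg1, Snhg3, Snhg5, Snhg6, Snhg8 and Snhg12) and 3 long noncoding RNAs of the nucleus (Malat1, Neat1 and Meg3). They were chosen by symbol, and each of the 10 symbols matched 1 of the 55453 rows of the deposited count table. RNA had been sequenced from ST2 cells, a stromal line of genotype WT that was established from bone marrow culture of BC8 mice and grown in medium without ascorbic acid. The 9 libraries formed 3 groups of 3. The fed 24 h and fed 3 h groups were ST2 cells given an excess of dye-stained human neutrophils, which had been kept frozen, for 24 h or 3 h and then sorted for a dye signal of at least a whole neutrophil. The unfed 24 h group was labelled control and was collected at 24 h. No unfed group at 3 h was analysed here, so fed 3 h and unfed 24 h cells differ in time as well as in feeding, and feeding cannot be told apart from the selection of the cells that took up dye. The replicates are numbered but not stated to be separate cultures, so p-values measure only the spread between these libraries, which may be technical.

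Small nucleolar RNAs (snoRNAs) guide the methylation and pseudouridylation of ribosomal RNA, and most are cut out of the introns of a host gene. The spliced RNA that is left over from a host such as Gas5 often begins with a pyrimidine tract, the start that ribosomal protein mRNAs share (5′ TOP), and in many hosts it encodes no protein and is removed by nonsense-mediated decay once ribosomes have read it. Gas5 takes its name from its rise in growth-arrested cells. Malat1 is retained in nuclear speckles, which store splicing factors, Neat1 is the RNA scaffold of paraspeckles, and Meg3 is an imprinted RNA made from the maternal copy of the Dlk1-Dio3 region.

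Total counts ran from 44442664 to 55971275 per library. The 9 members that passed the filter on low counts had between 197 and 7057 counts in each library, and Meg3 did not pass. Of 9 stromal markers, 8 were expressed in every library, Col1a1 at 11600 to 13400 counts per 1000000 scaled counts (CPM) and Cxcl12 at 2210 to 8160 CPM, while Thy1 had at most 1 count. The summed level of the 9 was 32540 to 34270 CPM in fed 24 h, 26000 to 26650 CPM in fed 3 h and 29520 to 31790 CPM in unfed 24 h libraries. Of 14 mouse leukocyte markers, 3 to 5 had more than 3 counts in a library, and their summed level was 10.9 to 13.5 CPM in fed 24 h, 4.99 to 6.10 CPM in fed 3 h and 6.95 to 9.62 CPM in unfed 24 h libraries, with Lyz2 at 2.07 to 7.48 CPM. S100a9 and Adgre1 had 0 counts and Ptprc at most 4. Gm42418 and Gm26917, loci at which reads of ribosomal RNA collect, took 0.201% to 0.350% of the counts in fed 24 h, 0.0927% to 0.249% in fed 3 h and 0.0904% to 0.115% in unfed 24 h libraries. A fit without these loci and the mitochondrial genes called 2 members in fed 24 h and 6 in fed 3 h against unfed 24 h. That fit called 7 in fed 24 h against fed 3 h, and each number was that of the main fit, given below. Beyond that, the part of any of these differences between groups in the results was not tested.

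The starts of host genes are shown because a pyrimidine tract at the start is known from this class. They show which members hold one at the annotated start used here. RefSeq (GRCm38.p6) gave promoter windows for 8 of the members, and Snhg6 and Neat1 had none. Annotated starts differ between sources. GENCODE M21 begins Snhg12 at 132308623 and Snhg5 (minus strand) at 88522929, where RefSeq has 132308678 and 88522897. A tract that begins more than 3 bases from the RefSeq start was not counted, so a member without a marked tract may hold one at another start. The stretches run from 50 bases before the annotated start to 29 bases after it, 5′ to 3′ on the strand of the gene. Capitals mark TATAA or TATAT beginning 40 to 20 bases before the start, and a C followed by at least 4 pyrimidines beginning within 3 bases of the start. They lie at chr1:161035116-161035195 (plus strand, the downstream of 2 annotated starts) for Gas5, chr4:132308628-132308707 (plus) for Snhg12, chr3:123508307-123508386 (minus) for Snhg8, chr9:88522868-88522947 (minus) for Snhg5, chr19:8723437-8723516 (plus) for Snhg1 and chr19:5802643-5802722 (minus) for Malat1.
Gas5: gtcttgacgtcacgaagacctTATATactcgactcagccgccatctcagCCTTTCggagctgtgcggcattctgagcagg
Snhg12: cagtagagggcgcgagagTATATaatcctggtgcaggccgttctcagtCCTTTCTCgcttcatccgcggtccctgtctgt
Snhg8: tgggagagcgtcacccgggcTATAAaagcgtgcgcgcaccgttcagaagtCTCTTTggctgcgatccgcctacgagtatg
Snhg5: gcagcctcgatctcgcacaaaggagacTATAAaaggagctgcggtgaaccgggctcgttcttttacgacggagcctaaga
Snhg1: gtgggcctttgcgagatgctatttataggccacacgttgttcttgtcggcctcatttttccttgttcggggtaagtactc
Malat1: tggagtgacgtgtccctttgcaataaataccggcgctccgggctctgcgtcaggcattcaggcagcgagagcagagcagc

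Gas5 at its downstream start, Snhg12 and Snhg8 held both motifs, Snhg5 the first alone and Snhg3 the second alone, while the printed stretch of Snhg1 and that of Malat1 held neither by this search. The upstream start of Gas5 held neither, and Meg3 held the first alone at its upstream start. Over the 7 windows of the 6 host genes, 4 held the first motif, 4 the tract and 3 both, while over the 12 windows of 11 other noncoding snoRNA hosts 1 held the first motif, 2 the tract and 1 both. Among all 32851 promoter windows in the table the shares were 4.68%, 11.5% and 0.618%. TGACG, the core of the cyclic AMP response element, was found on either strand within the 300-base windows of Gas5, Snhg8, Snhg12, Malat1 and Meg3, and in 20.8% of all windows. CACGTG, the E-box read by MYC, was found in none of the windows of the member hosts, in 2 of those of the other hosts and in 7.15% of all windows. The downstream start of Gas5 and the starts of Snhg12 and Snhg8 share the first motif, the tract and TGACG. Whether these motifs bear on the changes given below was not tested.

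The hosts also carry the snoRNAs themselves. Within the 7 host genes, GENCODE M21 has 29 snoRNA annotations on the same strand, 2 of them second entries of Snord80 and Snora16a, and 26 lie wholly inside a stretch that some transcript of the host counts as exon. A pair of box C/D snoRNAs is shown as examples of the products, with the C box (TGATGA) and the D box (CTGA) in capitals. Snord47 lies in Gas5 at chr1:161038082-161038158 (plus strand) and Snord87 in Snhg6 at chr1:9942463-9942549 (minus strand), both in GRCm38.
Snord47: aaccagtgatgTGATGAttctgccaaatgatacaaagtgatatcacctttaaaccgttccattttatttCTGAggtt
Snord87: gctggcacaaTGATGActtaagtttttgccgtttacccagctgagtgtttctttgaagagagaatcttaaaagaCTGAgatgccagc

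The rows of all 26 annotations inside host exons had 0 counts in all 9 libraries, Snord47 among them. The 2 that lie outside exons had counts. Snord87 had 1, 1 and 1 counts in fed 24 h, 4, 10 and 2 in fed 3 h and 2, 1 and 1 in unfed 24 h libraries. Snora73b in Snhg3 had 7, 6 and 14 counts in fed 24 h, 10, 16 and 19 in fed 3 h and 2, 6 and 13 in unfed 24 h libraries, and no difference passed the test (adjusted p = 0.848 for fed 24 h and 0.105 for fed 3 h against unfed 24 h). Snora73a, which lies partly in an exon, had 10 counts in all. How reads that touch both a host and its snoRNA were counted is not given in the sources used here, so the host counts may or may not hold them. For the same reason, the 0 counts of the rows inside exons do not show that those snoRNAs were absent. The rows outside exons may hold reads of unspliced host RNA, which was not tested.

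Per kilobase of annotated exon, the order in unfed 24 h cells began with Snhg8, at 34.9 ± 5.43 CPM per kb (SD, n = 3 here and below), and Gas5, at 19.2 ± 0.0858. Malat1 stood at 8.83 ± 1.32, Snhg1 at 7.18 ± 0.633, Snhg3 at 6.64 ± 0.427, Snhg5 at 5.67 ± 1.02, Snhg6 at 4.68 ± 0.106 and Snhg12 at 3.12 ± 0.170 CPM per kb, with Neat1 last at 0.246 ± 0.0362. The libraries of neighbours overlapped from Snhg1 to Snhg6 in this order and were apart for the others. The exon lengths include retained introns, 3760 bp in Gas5 and 20771 bp in Neat1, whose long form fills its whole gene, so these levels depend on which isoforms the cells made, and the counts do not separate isoforms. Meg3 (chromosome 12, 109541001 to 109571726) had 0 counts in every library, which allows up to 0.0536 to 0.0667 CPM per library (3 counts, counting error only).

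Between fed and unfed cells the members changed mainly at 3 h. Of the 9 tested members, 6 were higher in fed 3 h than in unfed 24 h cells and 0 lower. Among all 13568 tested genes 50.6% were called in this comparison, 25.1% higher and 25.5% lower. All fed 3 h libraries lay above all unfed 24 h libraries for 7 members, where the groups did not overlap for 58.2% of all genes, 29.1% higher. For fed 24 h against unfed 24 h, 1 member was higher and 1 lower, where 30.8% of all genes were called, 14.9% higher and 15.9% lower. The libraries were apart for 3 members, 2 above and 1 below, and for 43.2% of all genes, 21.3% above, so in this comparison the members' shares lay near those of all genes. For fed 24 h against fed 3 h, 7 members were lower and 0 higher, where 60.9% of all genes were called, 30.8% higher and 30.2% lower. The libraries were apart for 6 members, all below, and for 65.9% of all genes, 33.3% above and 32.6% below. Without fed 3 h replicate 2, or without fed 24 h replicate 2, 3 members were called lower in this comparison. The median log2 fold change of the 9 members was 0.37 in fed 3 h against unfed 24 h, 0.01 in fed 24 h against unfed 24 h and −0.66 in fed 24 h against fed 3 h, where the medians of all tested genes were −0.01, −0.00126 and −0.00172. Calls are at an adjusted p under 0.05 in edgeR's quasi-likelihood test, with adjustment over all tested genes. The 3 comparisons share libraries and are not independent. In libraries made from whole cell populations, a lower value can mean less RNA per cell or fewer cells that make it, and these cannot be told apart. The fed cells were sorted with the signal of human neutrophils, and the leukocyte markers above are mouse genes. Whether human reads were counted in mouse rows was not tested.

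**Figure D1:**
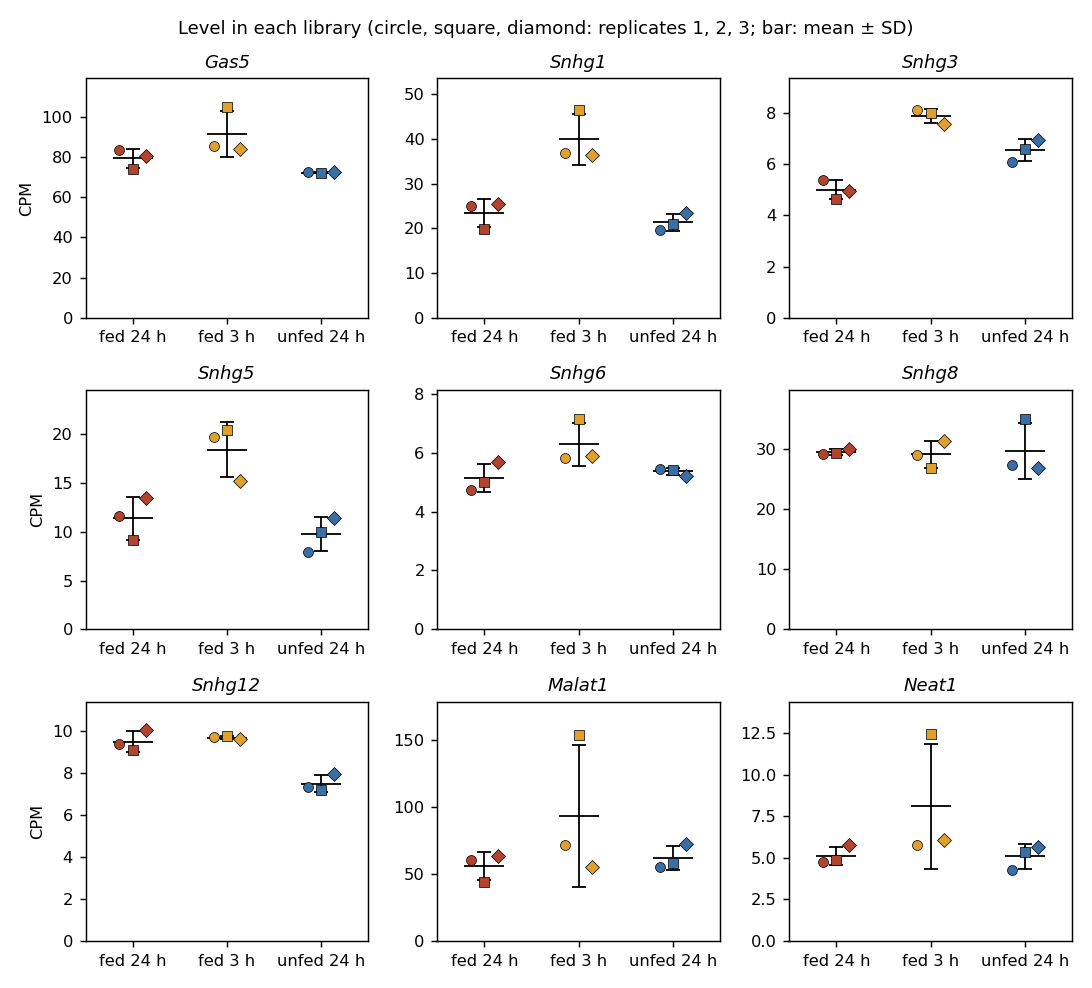
Level of the 9 tested members in each library, in CPM on a linear axis from 0, by group (fed 24 h, fed 3 h, unfed 24 h). Symbols are replicates and bars the mean ± SD of 3 libraries. Snhg1, Snhg3, Snhg5, Gas5, Snhg6 and Neat1 are higher in each fed 3 h library than in any library of the other groups. The lowest fed 3 h library is only slightly higher for Gas5, Snhg6 and Neat1. Snhg12 is higher in both fed groups, and fed 3 h replicate 2 stands far above the rest for Malat1 (154 CPM) and Neat1 (12.5 CPM).

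Snhg1 (chromosome 19, 8723475 to 8726443), the host of a run of box C/D snoRNAs, and Snhg5 (chromosome 9, 88521050 to 88522929), which hosts Snord50a and Snord50b, showed the largest rises. Snhg1 stood at 24.9, 19.9 and 25.4 CPM in fed 24 h, 36.9, 46.4 and 36.4 CPM in fed 3 h and 19.7, 20.9 and 23.4 CPM in unfed 24 h libraries. All fed 3 h libraries lay above all others, while the fed 24 h and unfed 24 h libraries overlapped. The fold change of fed 3 h over unfed 24 h was 1.87 (log2 0.90, SE 0.102, adjusted p = 2.93e-06), and fed 24 h was lower than fed 3 h by a log2 change of −0.77 (SE 0.100, adjusted p = 6.80e-06). At 24 h Snhg1 was not called against unfed cells (log2 0.13, with a 95% interval from its SE, as below, of −0.07 to 0.34).

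Snhg5 stood at 11.6, 9.12 and 13.5 CPM in fed 24 h, 19.7, 20.4 and 15.2 CPM in fed 3 h and 7.96, 9.99 and 11.5 CPM in unfed 24 h libraries. As for Snhg1, only the fed 3 h libraries stood clear of the other groups. The fold change of fed 3 h over unfed 24 h was 1.88 (log2 0.91, SE 0.143, adjusted p = 7.32e-05), and the log2 change of fed 24 h over fed 3 h was −0.70 (SE 0.139, adjusted p = 0.000434). At 24 h against unfed cells the log2 change was 0.22 (95% interval −0.07 to 0.50) and was not called, although it was with no filter on low counts (adjusted p = 0.0437, 0.0437 to 0.752 over the alternatives). Without the filter its SE was 0.0804, in place of 0.146. The rises of Snhg1 and Snhg5 at 3 h were called with each of the 9 libraries left out in turn.

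Gas5 (chromosome 1, 161034422 to 161038539), which hosts 10 of the 29 snoRNA annotations, had the most counts of the 7 hosts. It stood at 83.4, 74.1 and 80.4 CPM in fed 24 h, 85.4, 105 and 83.9 CPM in fed 3 h and 72.4, 71.8 and 72.3 CPM in unfed 24 h libraries. Each fed library was above each unfed library. The change of fed 3 h over unfed 24 h was 1.26-fold (log2 0.34, SE 0.0702, adjusted p = 0.000863), and that of fed 24 h over unfed 24 h was not called (log2 0.14, SE 0.0702, adjusted p = 0.160). Gas5 was lower in fed 24 h than in fed 3 h cells (log2 −0.20, adjusted p = 0.0194), a call that ended without fed 3 h replicate 2 (−0.10, adjusted p = 0.146), without fed 24 h replicate 2 (−0.16, adjusted p = 0.111) and with total counts in place of scaling factors (−0.15, adjusted p = 0.100, from 0.000635 to 0.146 over the alternatives).

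Snhg12 (chromosome 4, 132308623 to 132311024), the host of Snora16a, Snora44, Snora61 and Snord99, was the member that was higher at both times. It stood at 9.37, 9.09 and 10.04 CPM in fed 24 h, 9.70, 9.77 and 9.61 CPM in fed 3 h and 7.33, 7.19 and 7.96 CPM in unfed 24 h libraries. All 6 fed libraries lay above the 3 unfed libraries. The rise was 1.27-fold in fed 24 h (log2 0.34, SE 0.0747, adjusted p = 0.00306) and 1.29-fold in fed 3 h cells (log2 0.37, SE 0.0752, adjusted p = 0.000702). The difference between fed 24 h and fed 3 h was not called (log2 −0.03, 95% interval −0.17 to 0.11). Both rises were called under each of the 18 alternatives, with log2 values of 0.30 to 0.39 at 24 h and 0.33 to 0.42 at 3 h.

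Snhg3 (chromosome 4, 132348014 to 132353686), the host of Snora73a and Snora73b, was the member called in opposite directions at the 2 times. It stood at 5.40, 4.64 and 4.97 CPM in fed 24 h, 8.11, 8.00 and 7.59 CPM in fed 3 h and 6.10, 6.62 and 6.94 CPM in unfed 24 h libraries. The 3 groups did not overlap. Snhg3 fell to 0.764 of the unfed level in fed 24 h cells (log2 −0.39, SE 0.0921, adjusted p = 0.00511) and rose 1.21-fold in fed 3 h cells (log2 0.27, SE 0.0896, adjusted p = 0.0195). The fall was called under each of the 18 alternatives. The rise was not called without fed 3 h replicate 1 or 2, without unfed 24 h replicate 1, or with total counts alone (log2 0.22 to 0.26, adjusted p from 0.0159 to 0.0713 over the alternatives). Fed 24 h against fed 3 h, the direct comparison, gave −0.66 (SE 0.0907, adjusted p = 1.21e-05). Snhg3 shares 135 bases of exon on the same strand with Rcc1, which encodes the exchange factor of the GTPase Ran, and reads there cannot be told apart. Rcc1 moved the same way, by −0.39 (adjusted p = 0.000189) in fed 24 h and 0.55 (adjusted p = 1.05e-06) in fed 3 h against unfed 24 h cells.

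Snhg6 (chromosome 1, 9941959 to 9944118), the host of Snord87, stood at 4.75, 5.00 and 5.67 CPM in fed 24 h, 5.81, 7.13 and 5.90 CPM in fed 3 h and 5.46, 5.40 and 5.22 CPM in unfed 24 h libraries. The fed 3 h libraries lay above all others, 1 of them well above. Fed 3 h against unfed 24 h was not called (log2 0.23, SE 0.107, adjusted p = 0.0893), nor was fed 24 h against unfed 24 h (log2 −0.06, 95% interval −0.27 to 0.15). Fed 24 h was lower than fed 3 h (log2 −0.29, SE 0.106, adjusted p = 0.0276), a call that ended without fed 24 h replicate 1 (−0.23, adjusted p = 0.123) or replicate 2 (−0.27, adjusted p = 0.0817), without fed 3 h replicate 2 (−0.19, adjusted p = 0.164) and with total counts alone (−0.24, adjusted p = 0.0787, from 0.0186 to 0.164 over the alternatives).

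Snhg8 (chromosome 3, 123507552 to 123508404), the host of Snora24, had the highest level per kilobase and no called change. It stood at 29.1, 29.4 and 30.1 CPM in fed 24 h, 29.1, 27.0 and 31.4 CPM in fed 3 h and 27.4, 35.1 and 26.8 CPM in unfed 24 h libraries, so the groups overlapped in each comparison. The 95% intervals of the log2 change were −0.18 to 0.16 for fed 24 h and −0.20 to 0.14 for fed 3 h against unfed 24 h, and −0.15 to 0.19 for fed 24 h against fed 3 h. These intervals lie below the log2 rises of 0.90 and 0.91 measured for Snhg1 and Snhg5.

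**Figure D2:**
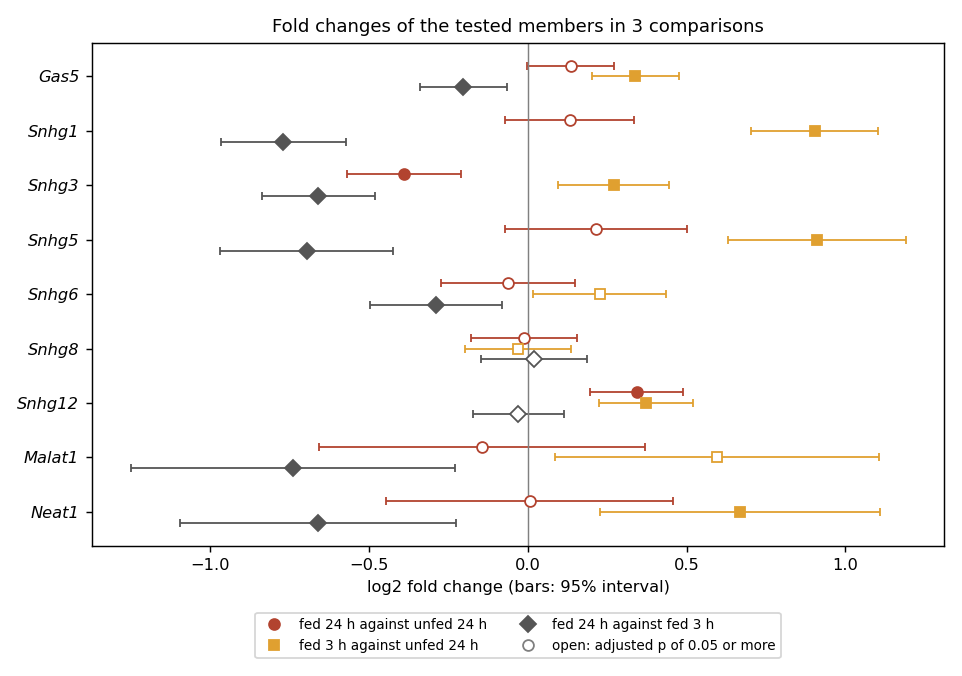
Log2 fold change of each tested member in the 3 comparisons, with bars of the 95% interval from the SE; filled symbols have an adjusted p under 0.05. Snhg1 and Snhg5 show the largest rises in fed 3 h against unfed 24 h cells (0.90 and 0.91), Snhg3 lies on opposite sides of 0 at the 2 times, and the intervals of Malat1 and Neat1 are the widest.

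Malat1 (chromosome 19, 5795690 to 5802672) and Neat1 (chromosome 19, 5824708 to 5845478) are neighbours, and 1 library decided their values. Malat1 stood at 60.0, 43.8 and 63.6 CPM in fed 24 h, 71.2, 154 and 55.1 CPM in fed 3 h and 55.1, 57.7 and 72.1 CPM in unfed 24 h libraries. Apart from fed 3 h replicate 2, at 154 CPM, the groups overlapped. Fed 3 h against unfed 24 h was not called (log2 0.60, SE 0.260, adjusted p = 0.0677) and was 0.04 without fed 3 h replicate 2 (adjusted p = 0.860). It was called without fed 3 h replicate 1 (0.76, adjusted p = 0.0421) or replicate 3 (0.87, adjusted p = 0.00472), and with no filter on low counts (0.59, adjusted p = 4.12e-27, the lowest of the alternatives, with 0.860 the highest). Without the filter the SE was 0.0534 here and in fed 24 h against fed 3 h, in place of 0.260. That SE is small for fed 3 h libraries that ran from 55.1 to 154 CPM. Fed 24 h was lower than fed 3 h (log2 −0.74, SE 0.260, adjusted p = 0.0218), but not without fed 3 h replicate 2 (−0.18, adjusted p = 0.300) or fed 24 h replicate 2 (−0.59, adjusted p = 0.112), by DESeq2 (−0.75, adjusted p = 0.115) or by limma-voom (−0.61, adjusted p = 0.0503, from 1.23e-41 to 0.300 over the alternatives). At 24 h against unfed cells the log2 change was −0.14 (95% interval −0.66 to 0.37).

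Neat1 stood at 4.73, 4.87 and 5.76 CPM in fed 24 h, 5.81, 12.5 and 6.10 CPM in fed 3 h and 4.25, 5.38 and 5.67 CPM in unfed 24 h libraries. The fed 3 h libraries lay above the others, 2 of them by little. Fed 3 h was higher than unfed 24 h (log2 0.67, SE 0.225, adjusted p = 0.0213), but not without fed 3 h replicate 2 (0.22, adjusted p = 0.201) or unfed 24 h replicate 1 (0.55, adjusted p = 0.0851), nor by DESeq2 (0.68, adjusted p = 0.0732, from 8.64e-09 to 0.201 over the alternatives). Fed 24 h was lower than fed 3 h (log2 −0.66, SE 0.222, adjusted p = 0.0173), a call that ended without fed 3 h replicate 2 (−0.22, adjusted p = 0.186), without fed 24 h replicate 1 (−0.60, adjusted p = 0.0655) or replicate 2 (−0.63, adjusted p = 0.0636) and by DESeq2 (−0.67, adjusted p = 0.0662, from 5.72e-09 to 0.186 over the alternatives). The lowest adjusted p of each of these 2 ranges came with no filter on low counts. There the SEs were 0.108 and 0.106, in place of 0.225 and 0.222. At 24 h against unfed cells the change was 0.01 (95% interval −0.45 to 0.46). Neither RNA was thus called in the comparison matched in time, and the interval leaves room for changes of that width.

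Fed 3 h replicate 2 also had the most counts in the 147 snoRNA and small Cajal body RNA rows of the table together. Their sum was 5.74 to 6.64 CPM in fed 24 h libraries, 10.3, 17.5 and 7.89 CPM in fed 3 h libraries and 7.22 to 8.36 CPM in unfed 24 h libraries. The same library had the highest level of Gas5, Snhg1, Snhg5, Snhg6, Malat1 and Neat1. Its mitochondrial share (1.58%) lay within the range of the unfed 24 h libraries (1.48% to 1.61%) and its share of ribosomal RNA linked counts was 0.0927%. What sets this library apart was not tested.

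**Figure D3:**
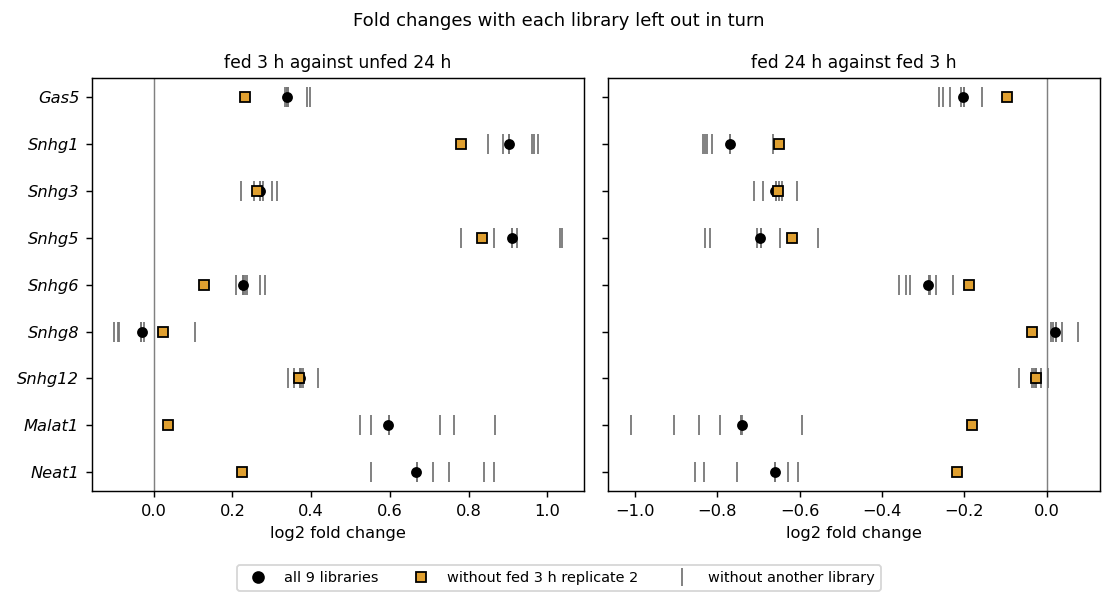
Log2 fold change of each tested member with all libraries (black circle), without fed 3 h replicate 2 (orange square) and without each other library in turn (grey ticks). Without fed 3 h replicate 2, Malat1 moves to 0.04 and Neat1 to 0.22 in fed 3 h against unfed 24 h, while Snhg1 is at 0.78 and Snhg5 at 0.83. The second panel shows fed 24 h against fed 3 h, where Malat1 is at −0.18 and Neat1 at −0.22 without that library.

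The Dlk1-Dio3 region, in which Meg3 lies, was nearly silent in these cells. Dlk1 had 0 counts in all libraries together, Rian 3, Dio3 7 and Rtl1 18. Mirg, a noncoding RNA that carries a microRNA cluster, had 20, 17 and 14 counts in fed 24 h, 1, 3 and 3 in fed 3 h and 11, 9 and 17 in unfed 24 h libraries. Every fed 3 h library was below the others for Mirg, at counts of 3 or fewer, so no fold change is given.

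Over the 9 libraries, Gas5, Snhg1 and Snhg5 had similar profiles (Pearson's r of log2(CPM + 1) 0.909 for Gas5 with Snhg1 and 0.957 for Snhg1 with Snhg5). Snhg3 and Snhg12 were almost unrelated (0.0148), and Malat1 and Neat1 were close (0.916). Among tested genes with a mean of at least 5 CPM, the closest to Snhg1 were Eif4a2 (0.995), which encodes a translation initiation factor and is itself a snoRNA host, Leng8 (0.986) and Snhg15 (0.981). The closest to Gas5 were Impact (0.952), an inhibitor of the kinase GCN2, Leng8 (0.947) and Snhg15 (0.946). One of the 3 closest to Snhg3 was 2700038G22Rik (0.983), the annotated host of Snord93. For Neat1, Malat1 was the second closest. These values describe 9 libraries in 3 groups and rest largely on the differences between groups, and for Malat1 and Neat1 on 1 library.

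Counts in this and the following lists stand beside high shares among all tested genes. Against unfed 24 h cells, 50.6% of all genes were called in fed 3 h (25.1% higher) and 30.8% in fed 24 h (14.9% higher). For fed 24 h against fed 3 h the share was 60.9% (30.2% lower). Other noncoding snoRNA hosts were followed as a list of 13, of which 8 could be tested. In fed 3 h against unfed 24 h cells, 5 of these hosts were higher and 1 lower, with a median of 0.67. Snhg17 rose by 0.96, Zfas1, the host of Snord12 family snoRNAs, by 0.96 and Snhg4 by 0.69, while Snhg18 fell by 0.46. Of these hosts in fed 24 h against unfed 24 h cells, Zfas1 rose by 0.64 (19.8 against 12.7 CPM, adjusted p = 0.000760), Snhg4 fell by 0.53 and 1 further host was lower, with a median of −0.17. Against fed 3 h cells, 6 were lower in fed 24 h cells, Snhg17 by −1.34 and Snhg4 by −1.22 among them, and Snhg18 was higher (0.45). Zfas1 thus resembled Snhg12 in being higher at both times, and Snhg4 resembled Snhg3 in being called in opposite directions. Unlike Snhg12, Zfas1 was also called lower in fed 24 h than in fed 3 h cells (−0.32, adjusted p = 0.0181).

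Of 22 protein-coding snoRNA hosts, most of them ribosomal protein or translation factor genes, fed 3 h cells had 6 higher and 7 lower than unfed 24 h cells, with a median of −0.07, and 11 lower with total counts alone. Among all tested genes 25.1% were higher and 25.5% lower, not far from the shares of this list in the main fit. Ncl, which encodes nucleolin, rose by 0.74, Nop56, a core protein of box C/D particles, by 0.64 and Taf1d, a subunit of the RNA polymerase I initiation complex, by 0.61. Rpl13a fell by 0.41 and Rpl17 by 0.26, though ribosomal protein genes have many near-identical copies and their counts are uncertain. Against unfed 24 h cells, fed 24 h cells had 0 of the 22 higher and 10 lower, with a median of −0.11, Rack1 (−0.28) and Nop56 (−0.26) among them. Against fed 3 h cells, 7 were lower and 0 higher in fed 24 h cells, but 4 were higher with total counts alone and 1 without fed 3 h replicate 2.

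The core proteins that bind snoRNAs changed in 1 direction in each comparison. All 8 were higher in fed 3 h than in unfed 24 h cells, with a median log2 change of 0.49. Nhp2 rose by 0.68 and Dkc1, the pseudouridine synthase dyskerin, by 0.66, both of box H/ACA particles. At 24 h, 7 of 8 were lower in fed than in unfed 24 h cells and 0 higher, with a median of −0.28, Snu13 by −0.39 and Nhp2 by −0.31. All 8 were lower in fed 24 h than in fed 3 h cells, with a median of −0.75, and Nhp2 averaged 60.4 CPM in fed 24 h and 121 CPM in fed 3 h cells. Snhg3 was called in the directions of these genes, while at 24 h against unfed cells Snhg12 was higher and Gas5 was not called.

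Factors of nonsense-mediated decay, the pathway that removes many spliced host RNAs, had 7 of 10 higher and 0 lower in fed 3 h against unfed 24 h cells, with a median of 0.31. Smg9 rose by 0.65 and Smg5 by 0.44, both partners of the central helicase Upf1 in this pathway. Against unfed 24 h cells, fed 24 h cells had 3 of these factors higher and 4 lower (2 lower with total counts alone), with a median of 0.02. Upf3b rose by 0.41 and Smg6, an endonuclease, by 0.25, while Smg5 fell by 0.27. Against fed 3 h cells, 7 were lower in fed 24 h cells, Smg5 by −0.71, and 1, Smg6, was higher (0.30), or 2 with total counts alone.

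Paraspeckle proteins, the partners of Neat1, had 4 of 8 higher and 2 lower in fed 3 h against unfed 24 h cells, with a median of 0.12. Without fed 3 h replicate 2, 1 was lower. Among all tested genes 25.1% were higher and 25.5% lower in this comparison. Pspc1 rose by 0.43, while Rbm14 fell by 0.15. In fed 24 h against unfed 24 h cells, Rbm14 fell by 0.49, Sfpq by 0.26 and Tardbp by 0.20. Scaffold and splicing proteins of nuclear speckles, where Malat1 resides, had 3 of 6 higher and 0 lower in fed 3 h against unfed 24 h cells, Rbm25 by 0.68. In fed 24 h against unfed 24 h cells, Rbm25 (0.29) and Acin1 (0.23) were higher and Srrm2 (−0.26) and Son (−0.21) lower.

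**Figure D4:**
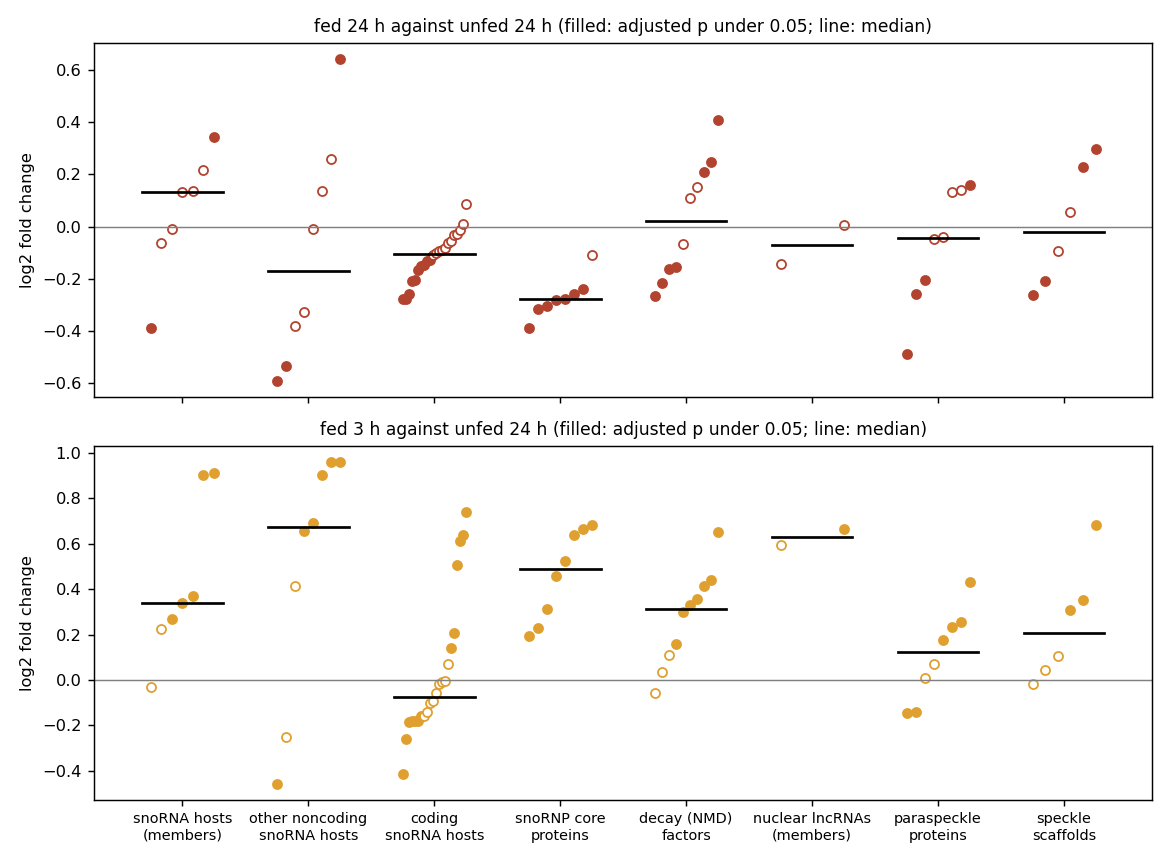
Log2 fold changes of the tested genes of each group in fed 24 h (upper panel) and fed 3 h (lower panel) against unfed 24 h cells; filled points have an adjusted p under 0.05 and lines are medians. The snoRNP core proteins lie above 0 at 3 h (median 0.49) and below 0 at 24 h (median −0.28), while the snoRNA host members have medians of 0.34 and 0.13.

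Of 16 other long noncoding RNAs, 11 could be tested. In fed 3 h against unfed 24 h cells, 2 were higher and 2 lower, but 1 was higher without fed 3 h replicate 2 or with total counts alone, and 3 were lower without that library. In fed 24 h against unfed 24 h cells 1 was higher and 4 lower, with a median of −0.24. Tug1, a widely expressed nuclear RNA, was lower at both times, at 89.4 CPM in fed 24 h, 86.8 CPM in fed 3 h and 105 CPM in unfed 24 h cells (log2 −0.24, adjusted p = 0.00327, and −0.28, adjusted p = 0.000380). Mir22hg, the host of a microRNA, was higher than in unfed 24 h cells (3.44 CPM) at both times in the main fit. It stood at 5.27 CPM in fed 24 h (log2 0.62, adjusted p = 0.00284) and 4.47 CPM in fed 3 h cells (log2 0.37, adjusted p = 0.0302).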

How the data were processed

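Raw read counts per mouse gene symbol, 1 column per library with no pooling, were deposited by the authors. Alignment and counting tools named in the submitters' processing notes are STAR 2.7.0f and Subread 1.6.4 (featureCounts), beside MultiQC 1.7, and GRCm38.p6 and GRCh38.p13 are the builds named. Which annotation and strand setting were used, and how multi-mapping reads were counted, is not stated in those notes. Library kits differ between the labels' protocols (TruSeq stranded and SMART-Seq with Nextera), so strand is unresolved.

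Counts were tested with edgeR 4.0.16 (quasi-likelihood F-test, R 4.3.3) in 1 fit of 9 libraries with TMM scaling and filterByExpr, which kept 13568 genes. P-values were adjusted by Benjamini-Hochberg over all of them. SEs are the log2 change divided by the square root of F. CPM are counts per 1000000 of the TMM-scaled totals. Coordinates are GENCODE M21 (GRCm38). Replicates differed by more than counting noise (chi-square per degree of freedom 5.20 to 15.4). The fit was tested on simulated data. The alternatives were DESeq2 1.42.0, its size factors, limma-voom 3.58.1, other filters, total counts, a replicate block, fewer libraries and fewer genes. A pair of alternatives for the lists were added after seeing the data.

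The members and lists were chosen with earlier results of these data known. All members are described, with up to 3 called genes per direction of each list at 5 CPM or more, and the 3 genes most like a member; not every such gene is described. Some genes of the lists are not reported here.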

Additional observations from a re-analysis of the deposited data

Results flagged for a closer look

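For 7 of the 9 tested members the 2 feeding times differed in the direct test of fed 24 h against fed 3 h, which is the reason they are singled out; 60.9% of all 13568 tested genes were called in that comparison, so such a difference was common. The log2 changes were −0.77 for Snhg1, −0.74 for Malat1, −0.70 for Snhg5, −0.66 for Neat1, −0.66 for Snhg3, −0.29 for Snhg6 and −0.20 for Gas5. The calls of Snhg1, Snhg3 and Snhg5 held with each library left out in turn, and those of Malat1, Neat1, Snhg6 and Gas5 did not.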

How the results depend on the processing

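Of 486 values of members under the alternatives, 449 kept their direction and their side of the threshold, 22 were no longer called, 4 became called and 11 changed sign. With no filter on low counts, 2 members were higher in fed 24 h against unfed 24 h in place of 1. Leaving out 1 library at a time, the members lower in fed 24 h against fed 3 h numbered 3 to 7, and the genes lower in fed 24 h against unfed 24 h numbered 1426 (without fed 24 h replicate 1) to 2241.

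The changes of sign concern small log2 values that were not called. Under the stricter filter Snhg8 in fed 24 h against unfed 24 h was 0.00505, and with total counts alone Snhg12 in fed 24 h against fed 3 h was 0.0230. With 1 library left out, Snhg8 ran from −0.0777 to 0.127 in fed 24 h and from −0.100 to 0.105 in fed 3 h against unfed 24 h, and from −0.0352 to 0.0759 in fed 24 h against fed 3 h. In the same way Malat1 ran from −0.247 to 0.00394 and Neat1 from −0.107 to 0.0900 in fed 24 h against unfed 24 h, and Snhg12 from −0.0665 to 0.00232 in fed 24 h against fed 3 h. The cause was not tested. Same-numbered libraries showed no shared deviation (r from −0.163 to 0.0578, and −0.0971 to 0.104 for different numbers). With 3 libraries a group this cannot settle whether the numbers pair them, and the labels do not say. With a replicate block 2 members were called in fed 24 h and 6 in fed 3 h against unfed 24 h. For fed 24 h against fed 3 h 7 were called, and all of these numbers are the same as without the block.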

Other observations

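Outside the members, 2 snoRNA rows inside Rpl3, a ribosomal protein gene, differed between groups while Rpl3 itself was not called; they were picked after their values were seen. They are 2 of 8 tested snoRNA rows, which did not share 1 direction: Snora31, inside the uncalled gene Tpt1, was higher in fed 24 h (log2 1.13, adjusted p = 0.0319) and in fed 3 h (adjusted p = 0.0215) against unfed 24 h, and Snord104 (−0.72) and Snora57 (−0.79) were lower in fed 3 h. Snord43 had 9, 3 and 11 counts in fed 24 h, 76, 142 and 39 in fed 3 h and 18, 26 and 27 in unfed 24 h libraries, and every fed 3 h library was above every other. Its log2 change was 1.83 in fed 3 h (adjusted p = 0.00167) and −1.79 in fed 24 h against unfed 24 h (adjusted p = 0.0323). Snord83b had 26, 14 and 8 counts in fed 24 h, 69, 132 and 37 in fed 3 h and 25, 25 and 31 in unfed 24 h libraries (log2 1.53 for fed 3 h against unfed 24 h, adjusted p = 0.00632; −0.93 for fed 24 h, not called). The log2 change of Rpl3 was −0.06 in fed 3 h (adjusted p = 0.320) and −0.08 in fed 24 h (adjusted p = 0.194). Fed 3 h replicate 2 was again the highest library for both rows, and its part in these differences was not tested. Snord43 and Snord83b lie outside the annotated exons of Rpl3, and Snora31 outside those of Tpt1. Their rows may therefore hold reads of unspliced host RNA as well as of the snoRNAs, and these were not told apart.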
